A study of Homo sapiens with 4 samples.

Results

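The let-7 family guide strands are 9 mature microRNAs (miRNAs): let-7a-5p, let-7b-5p, let-7c, let-7d-5p, let-7e-5p, let-7f-5p, let-7g-5p, let-7i-5p and miR-98-5p. They were taken by name from 4 small RNA libraries, and all 9 were found in each library, among 1883 names that all 4 files list. The files list them with the prefix of the species, as hsa-let-7a-5p, hsa-let-7b-5p and so on to hsa-let-7i-5p, and the last member, hsa-miR-98 in the HT29 files, was joined with hsa-miR-98-5p of HCT15. HT29 and HCT15 are established human colorectal adenocarcinoma cell lines. Spheres of each line were grown in DMEM-F12 supplemented with N2 Plus, EGF at 10 ng/ml and bFGF at 10 ng/ml, and the submitters call them sphere-derived cancer stem cells. Parental HT29 cells were grown in DMEM with 10% FBS, and parental HCT15 cells in RPMI with 10% FBS. All cultures held 1% penicillin-streptomycin. The question was which miRNAs differ between spheres and parental cells. Growth form and medium changed together in both lines, so sphere growth and the change of medium cannot be told apart. Each line and culture had 1 library, so no difference within a line has a replicate check.

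The let-7 miRNAs were first found in Caenorhabditis elegans as timers of development, and in mammals they are low in embryonic stem cells and increase as cells differentiate. The guide strand is loaded into an Argonaute protein and pairs through its seed with messenger RNAs, among which RAS, HMGA2, MYC and LIN28 transcripts are known targets. In human cells the RNA-binding proteins LIN28A and LIN28B block the maturation of let-7 precursors, and LIN28 recognises a GGAG element in the terminal loop. In colorectal tumours the family is mostly described as a brake on growth.

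All 9 guide strands were 22 nt long and shared the seed GAGGUAG at bases 2 to 8, shown in capitals in the RefSeq sequences (GRCh38.p14). The sequences are shown because the members differ by so few bases outside the seed that the counting of reads has to tell near-identical strands apart.
let-7a-5p: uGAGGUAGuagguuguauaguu
let-7b-5p: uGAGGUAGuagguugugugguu
let-7c: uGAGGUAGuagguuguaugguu
let-7d-5p: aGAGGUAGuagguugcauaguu
let-7e-5p: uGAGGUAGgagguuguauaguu
let-7f-5p: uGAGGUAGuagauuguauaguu
let-7g-5p: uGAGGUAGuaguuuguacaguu
let-7i-5p: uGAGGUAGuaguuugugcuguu
miR-98-5p: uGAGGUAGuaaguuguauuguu
Positions are counted from 1 at the 5′ end, and each substitution gives the base of let-7a-5p first. A single substitution separated let-7a-5p from let-7c (A19G), let-7e-5p (U9G) and let-7f-5p (G12A). let-7b-5p differed from let-7a-5p by A17G and A19G, and thus from let-7c by 1 base. let-7d-5p, with U1A and U16C, was the member whose 5′ base is not U. let-7g-5p differed by G12U and U18C, and miR-98-5p by G11A and A19U. let-7i-5p was farthest, with 4 substitutions (G12U, A17G, U18C and A19U).

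Listed miRNA reads came to 12794274 in HT29 spheres and 5806540 in HT29 parental cells. For HCT15, deposited as RPKM, the values corresponded to about 2325417 reads in spheres and 3189981 in parental cells. Levels are given as CPM, the reads of a miRNA scaled to a fixed total of listed miRNA reads in its library. Ratios were compared with those of all miRNAs that averaged 50 CPM or more over the libraries of a line. A count of 0 allowed up to 3 reads, which is 0.234 to 1.29 CPM over the 4 libraries. The miRNAs of intestinal epithelium miR-192-5p, miR-194-5p, miR-215 and miR-375 summed to 186323 and 118374 CPM in HT29 spheres and parental cells, and to 10805 and 13327 CPM in HCT15 spheres and parental cells. In HCT15 most of that sum was miR-375, at 7538 CPM in spheres and 10451 CPM in parental cells. Of 5 stromal markers, miR-214-3p was at 0 in all 4 libraries, and the list summed to 8.60 to 27.7 CPM. The 6 blood cell miRNAs summed to 378 and 405 CPM in HT29 spheres and parental cells, mostly miR-142-3p (367 and 381 CPM). In HCT15 spheres and parental cells they summed to 36.6 and 45.8 CPM. Endothelial miR-126-3p was at 147 and 132 CPM in HT29 spheres and parental cells, and at 8.60 and 12.2 CPM in those of HCT15. The 3 muscle miRNAs on the marker lists summed to 1159 CPM in HT29 spheres and 166 CPM in HT29 parental cells, nearly all of it miR-1, and all 3 were at 0 in HCT15. Their part in the HT29 results was not tested. Intervals throughout are 95% intervals that cover counting error only.

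The family took a smaller share of listed reads in spheres than in parental cells of both lines, but the direction of its ratio depended on how libraries were scaled. The 9 guide strands made up 15.5% of listed reads in HT29 spheres (Clopper-Pearson interval 15.48 to 15.52) and 17.3% in HT29 parental cells (17.29 to 17.35). They made up 7.06% in HCT15 spheres (7.03 to 7.10) and 10.1% in HCT15 parental cells (10.10 to 10.17). Spheres over parental cells, these shares stood at 0.895-fold in HT29 and 0.697-fold in HCT15. With TMM scaling, which sets libraries equal on miRNAs of middling ratios, the log2 ratio of the summed family, spheres over parental cells, was 0.45 in HT29 (interval 0.44 to 0.45) and -0.17 in HCT15 (-0.18 to -0.16). Over 6 scalings it ranged from -0.16 to 0.64 in HT29 and from -0.52 to 0.10 in HCT15. The change from TMM to total reads moved the median log2 ratio of all miRNAs at 50 CPM or more from 0.03 to -0.58 in HT29 and from 0.09 to -0.26 in HCT15. In bulk RNA such as this, fewer cells with a miRNA and less of it per cell cannot be told apart.

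**Figure D1:**
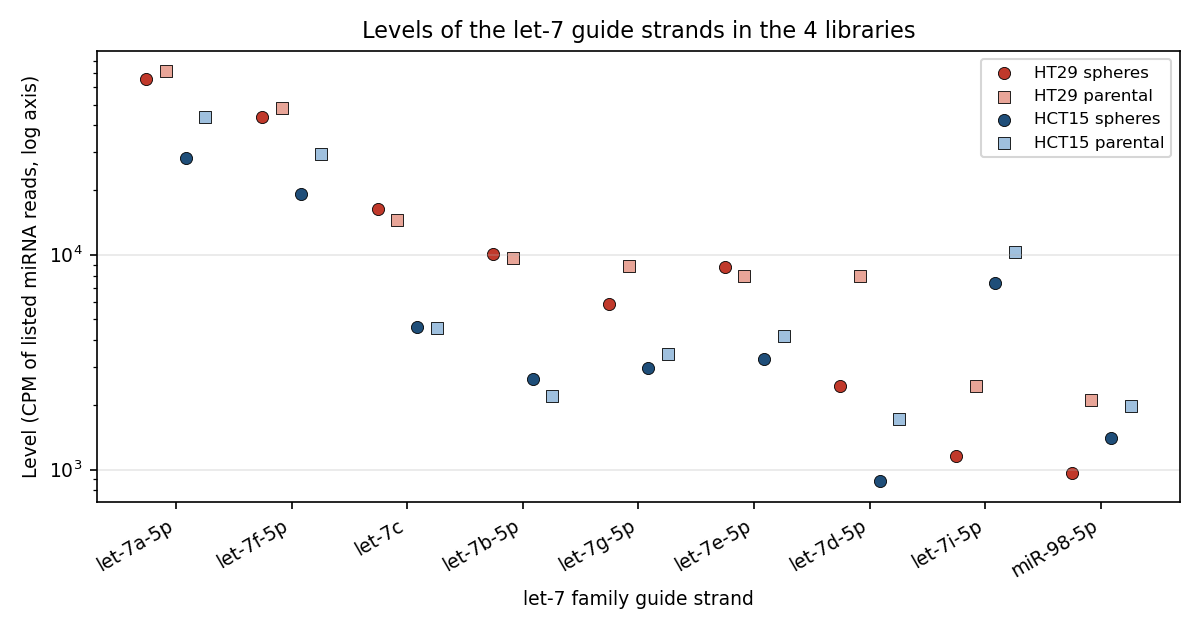
Level of each let-7 guide strand in CPM of listed miRNA reads (log axis) in HT29 spheres, HT29 parental cells, HCT15 spheres and HCT15 parental cells, 1 point per library. let-7a-5p was highest in every library (28210 to 71404 CPM), and let-7i-5p was the member with the clearest reverse order of the lines, at 7398 and 10268 CPM in HCT15 spheres and parental cells against 1157 and 2454 CPM in those of HT29.

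let-7a-5p and let-7f-5p, the guide strands made from more than 1 hairpin gene, carried most of the family. let-7a-5p was at 65881 CPM in HT29 spheres and 71404 CPM in HT29 parental cells, and at 28210 CPM in HCT15 spheres and 43539 CPM in HCT15 parental cells. It thus lay below its parental level in the spheres of both lines in CPM. The log2 ratio with TMM scaling was 0.49 in HT29 (range over scalings -0.12 to 0.69) and -0.27 in HCT15 (-0.63 to -0.01). let-7f-5p was at 43540.4 CPM in HT29 spheres and 48292 CPM in HT29 parental cells, and at 19206 CPM in HCT15 spheres and 29469 CPM in HCT15 parental cells. Its ratios followed those of let-7a-5p closely, at 0.46 in HT29 (-0.15 to 0.65) and -0.26 in HCT15 (-0.62 to 0.00). The sign of both members in HT29, and of let-7f-5p in HCT15, depended on the scaling.

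let-7b-5p and let-7c were the members with a positive ratio in both lines under each of the 6 scalings. let-7b-5p was at 10066 CPM in HT29 spheres and 9689 CPM in HT29 parental cells, and at 2648 CPM in HCT15 spheres and 2195 CPM in HCT15 parental cells. Its log2 ratio was 0.66 in HT29 (interval 0.65 to 0.67) and 0.63 in HCT15 (0.58 to 0.68). Over the 6 scalings the ratio ranged from 0.06, with total reads, to 0.86 in HT29 and from 0.27 to 0.89 in HCT15. Among the miRNAs at 50 CPM or more its ratios ranked 61 of 226 in HT29 and 27 of 205 in HCT15, counted from the highest. let-7c was at 16246 CPM in HT29 spheres and 14452 CPM in HT29 parental cells, and at 4612 CPM in HCT15 spheres and 4562 CPM in HCT15 parental cells. Its log2 ratio was 0.77 in HT29 (range over scalings 0.17 to 0.97) and 0.37 in HCT15 (0.02 to 0.63), so with total reads it was near 0 in HCT15. let-7e-5p, whose substitution is at the base directly after the seed, was at 8780 CPM in HT29 spheres and 7969 CPM in HT29 parental cells, and at 3288 CPM in HCT15 spheres and 4183 CPM in HCT15 parental cells. It had a log2 ratio of 0.75 in HT29, positive under each scaling (0.14 to 0.94), and of 0.01 in HCT15, where the interval of -0.03 to 0.05 includes 0.

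let-7d-5p, the member that starts with A, was lower in the spheres of both lines under each scaling. It was at 2445 CPM in HT29 spheres and 7953 CPM in HT29 parental cells, a log2 ratio of -1.10 (interval -1.12 to -1.08; range over scalings -1.70 to -0.90). In HCT15 it was at 882 CPM in spheres and 1714 CPM in parental cells, a log2 ratio of -0.60 (interval -0.68 to -0.53; range over scalings -0.96 to -0.34). These ratios ranked 187 of 226 in HT29 and 182 of 205 in HCT15 from the highest, so lower ratios were found for other miRNAs in both lines.

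let-7g-5p, let-7i-5p and miR-98-5p lay between these patterns. let-7g-5p was at 5897 CPM in HT29 spheres and 8862 CPM in HT29 parental cells, and at 2967 CPM in HCT15 spheres and 3458 CPM in HCT15 parental cells. Its log2 ratios of 0.02 in HT29 and 0.13 in HCT15 changed sign with the scaling. let-7i-5p was at 1157 CPM in HT29 spheres and 2454 CPM in HT29 parental cells (log2 ratio -0.48, range over scalings -1.08 to -0.28), and at 7398 CPM in HCT15 spheres and 10268 CPM in HCT15 parental cells (-0.12, -0.47 to 0.15). miR-98-5p was at 964 CPM in HT29 spheres and 2104 CPM in HT29 parental cells (-0.52, -1.13 to -0.32), and at 1409 CPM in HCT15 spheres and 1974 CPM in HCT15 parental cells (-0.13, -0.49 to 0.13). Both were thus negative under each scaling in HT29 and changed sign with it in HCT15.

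**Figure D2:**
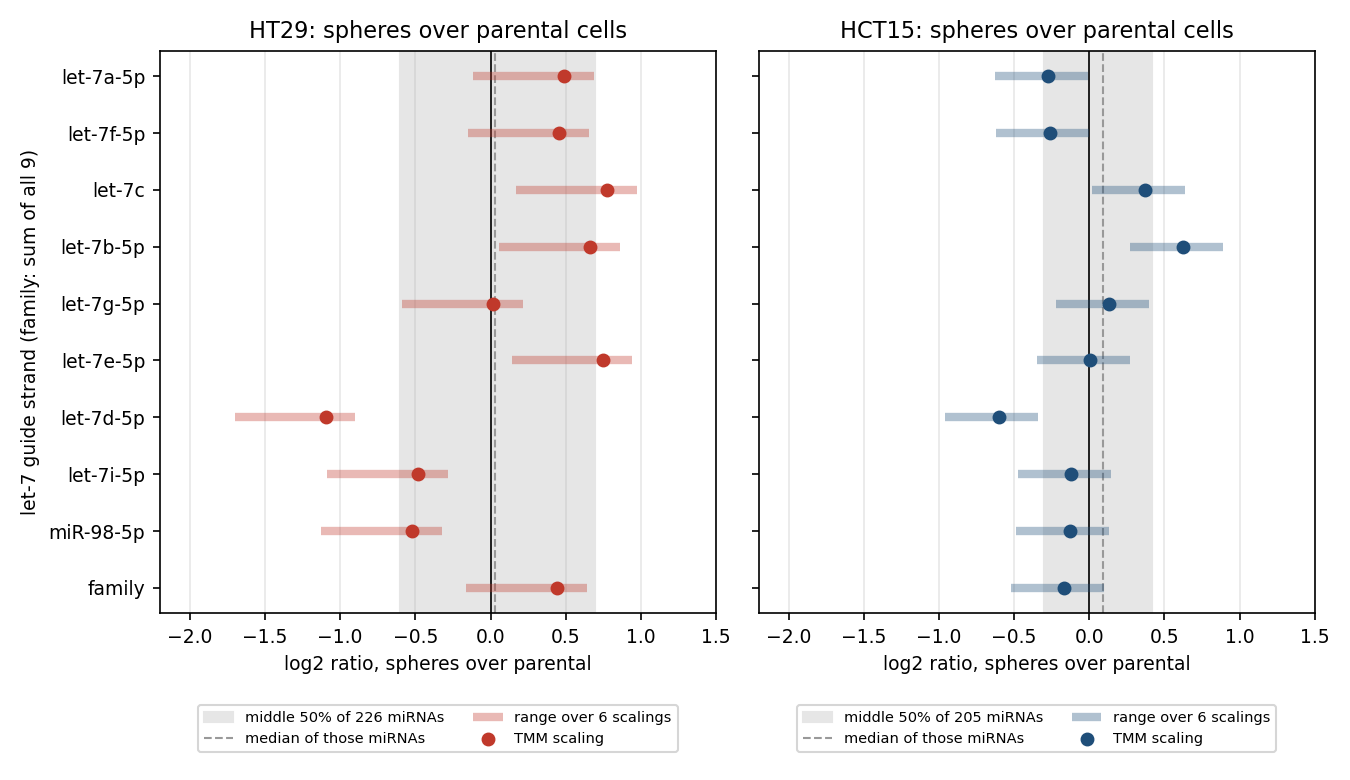
Log2 ratio of spheres over parental cells for each let-7 guide strand and for their sum, in HT29 (left) and HCT15 (right). Points use TMM scaling, thick bars span 6 scalings, the grey band holds the middle 50% of 226 (HT29) and 205 (HCT15) miRNAs that averaged 50 CPM or more, and the dashed line is their median. let-7d-5p lies left of 0 over its whole bar in both panels, and let-7b-5p and let-7c lie right of 0.

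Counted at 2-fold with TMM scaling, 1 of 9 members, let-7d-5p, was lower in HT29 spheres and 0 of 9 were higher, where 19.0% of 226 miRNAs were lower and 13.3% higher. In HCT15 0 of 9 members were 2-fold lower and 0 of 9 higher, where 1.95% of 205 miRNAs were lower and 4.39% higher. The median log2 ratio of the members was 0.46 in HT29, beside 0.03 for all miRNAs at that level, and -0.12 in HCT15, beside 0.09. In HT29 6 of 9 members had a positive ratio and 3 a negative one, where 52.2% of 226 miRNAs were positive and 47.8% negative. In HCT15 4 of 9 members had a positive ratio and 5 a negative one, where 56.6% of 205 miRNAs were positive and 43.4% negative. A positive ratio in both lines was found for 4 of 9 members and for 37.6% of 149 miRNAs that averaged 50 CPM or more within both lines. A negative ratio in both lines was found for 3 of 9 members and for 18.8% of those miRNAs, and a positive ratio in HT29 with a negative one in HCT15 for 2 of 9 members and for 20.1%. The reverse, negative in HT29 and positive in HCT15, was found for 0 of 9 members and for 23.5% of those miRNAs. These counts are at TMM scaling. Among the members with the same sign in both lines, let-7g-5p changed sign with the scaling in both. let-7e-5p, let-7i-5p and miR-98-5p did so in HCT15. Over all 6 scalings 3 to 6 of 9 members in HT29 had a positive ratio, where 28.3% to 60.2% of miRNAs did. In HCT15 it was 2 of 9 members with total reads (30.7% of miRNAs), 6 of 9 with DESeq2 size factors (69.8%) and 7 of 9 with upper quartile scaling (72.7%).

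Across both lines no member passed the test in which the 2 lines stand as replicates of the culture. limma, with cell line as a block, called 0 of 9 members and 0 of 378 miRNAs (0%) at a Benjamini-Hochberg adjusted p under 0.05, and at an unadjusted p under 0.05 it had 0 of 9 members against 22 of 378 miRNAs (5.82%). With total reads 1 of 9 members, let-7d-5p, was under that unadjusted limit, where 39 of 378 miRNAs were. With upper quartile scaling 2 of 9 were, let-7b-5p and let-7c, where 31 of 378 miRNAs were. None of these members passed after adjustment. edgeR's quasi-likelihood test on reads, rounded for HCT15, also called 0, with 0 members and 22 miRNAs at an unadjusted p under 0.05, and DESeq2 called 5 miRNAs, of which 0 were members. let-7d-5p had the largest limma log2 fold change of the family, -0.85 (SE 0.38, limma adjusted p = 0.769, lower in 2 of 2 lines). let-7b-5p had 0.64 (SE 0.33) and let-7c 0.57 (SE 0.32), with the same limma adjusted p and higher in 2 of 2 lines each. let-7a-5p had 0.11 (SE 0.29) and let-7f-5p 0.10 (SE 0.30), each with ratios of opposite sign in the lines. Over 11 settings, edgeR and DESeq2 included, the adjusted p of let-7d-5p ranged from 0.341 to 0.998. The labels name no repeat culture of either line. The limma p-values therefore rest on how far the ratio of spheres over parental cells differed between the lines, not on repeat cultures. That spread had 1 residual degree of freedom, and limma added a median of 3.107 prior degrees of freedom drawn from all miRNAs tested.

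Shares within the family need no scaling between libraries, and by that measure let-7d-5p held less and let-7b-5p, let-7c and let-7e-5p held more of the family in the spheres of both lines. let-7d-5p made up 1.58% of family reads in HT29 spheres (interval 1.56 to 1.59) and 4.59% in HT29 parental cells (4.55 to 4.63). In HCT15 it made up 1.25% in spheres (1.20 to 1.30) and 1.69% in parental cells (1.65 to 1.74). The intervals of spheres and parental cells did not overlap in either line, and the fold was 0.344 in HT29 and 0.738 in HCT15. Lack of overlap does not set let-7d-5p apart, since these intervals cover counting error only. In HT29 those of let-7f-5p, at 1.01-fold, did not overlap either (28.03 to 28.16 in spheres, 27.80 to 27.97 in parental cells). let-7b-5p made up 6.49% in HT29 spheres and 5.59% in HT29 parental cells, and 3.75% in HCT15 spheres and 2.17% in HCT15 parental cells, or 1.16-fold and 1.73-fold. let-7c made up 10.5% in HT29 spheres and 8.34% in HT29 parental cells, and 6.53% in HCT15 spheres and 4.50% in HCT15 parental cells, or 1.26-fold and 1.45-fold. let-7e-5p stood at 1.23-fold in HT29 and 1.13-fold in HCT15.

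let-7a-5p and let-7f-5p were the highest members in every library. let-7a-5p made up 42.5% of family reads in HT29 spheres and 41.2% in HT29 parental cells, and 39.9% in HCT15 spheres and 43.0% in HCT15 parental cells. let-7f-5p made up 28.1% and 27.9% in HT29 spheres and parental cells, and 27.2% and 29.1% in HCT15 spheres and parental cells. The shares of the remaining members differed in direction between the lines. let-7g-5p held 0.744-fold its parental share in HT29 spheres and 1.23-fold in HCT15 spheres. For let-7i-5p the fold was 0.527 in HT29 and 1.03 in HCT15, and for miR-98-5p it was 0.512 in HT29 and 1.02 in HCT15.

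**Figure D3:**
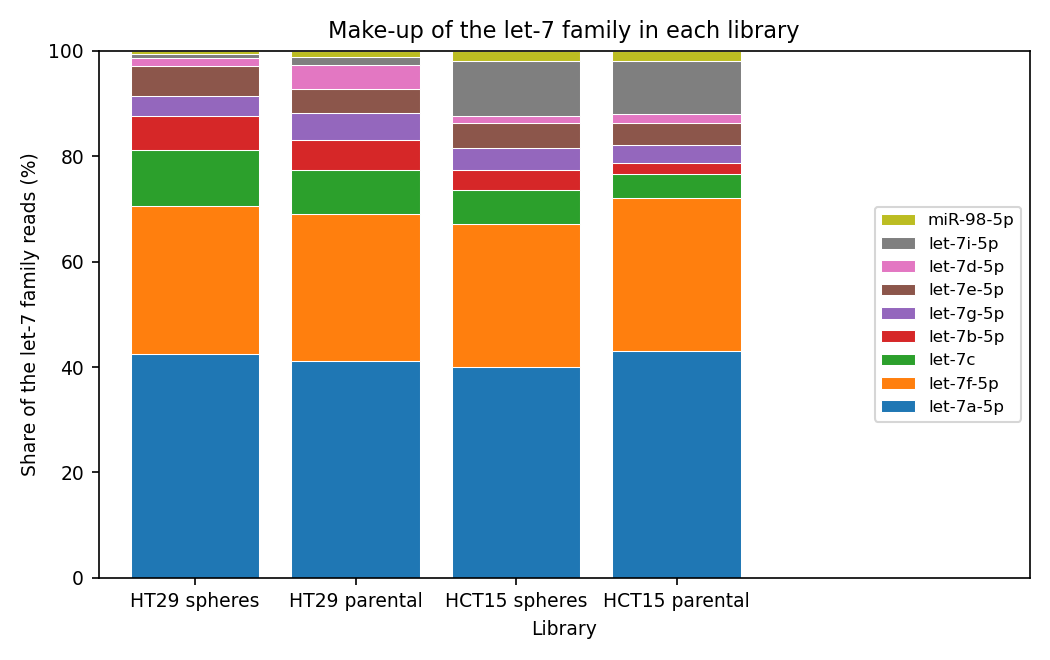
Share of let-7 family reads held by each guide strand, as percent of the 9 members' reads, in each library. let-7a-5p and let-7f-5p form the lower blocks in all 4 bars, and let-7i-5p takes 10.5% and 10.1% in HCT15 spheres and parental cells against 0.747% and 1.42% in HT29 spheres and parental cells.

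**Figure D4:**
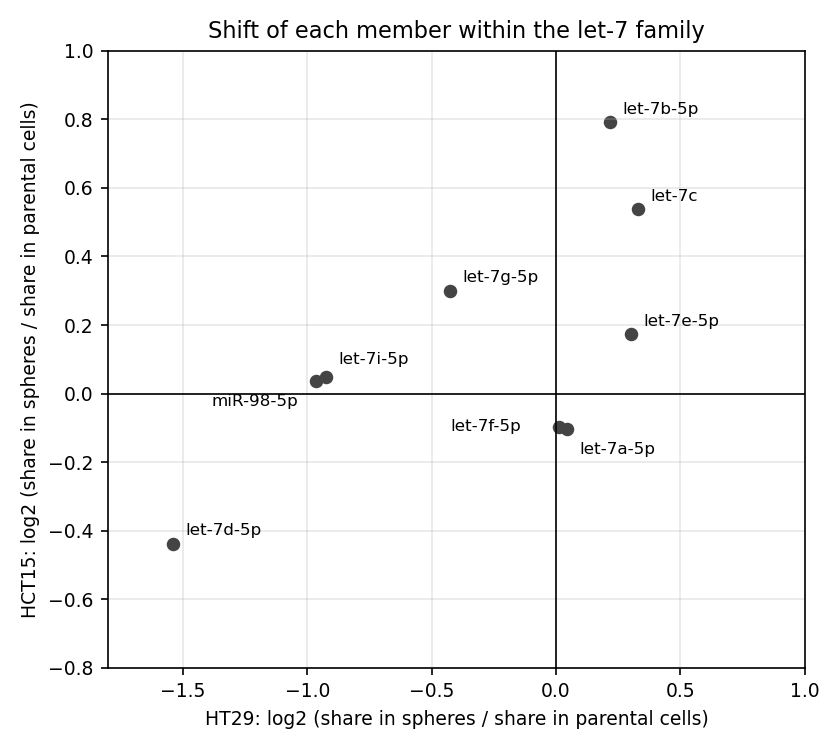
Log2 of the share of the family in spheres over that in parental cells, in HT29 (horizontal axis) and HCT15 (vertical axis), 1 point per guide strand. let-7d-5p is the point below 0 on both axes, and let-7b-5p, let-7c and let-7e-5p are above 0 on both.

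If names that differ by a single base are taken as 1, a choice made after the sequences and values were seen, let-7a-5p, let-7b-5p, let-7c, let-7e-5p and let-7f-5p join into a group. It held 93.2% of family reads in HT29 spheres and 87.7% in HT29 parental cells, and 82.1% in HCT15 spheres and 82.8% in HCT15 parental cells. Its log2 ratio with TMM scaling was 0.53 in HT29 and -0.18 in HCT15. let-7d-5p differed from each member of that group by at least 2 bases, whereas the shift between let-7a-5p and let-7c rests on base 19 alone. How mismatched or shared reads were assigned is not given in the sources used here, and its part in these shifts was not tested.

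The hairpins of the family lie at several loci, and members made from neighbouring hairpins did not have the same ratios. Positions are on GRCh38, from RefSeq, and host genes on the same strand are from GENCODE 29. MIRLET7A1, MIRLET7F1 and MIRLET7D lie on chromosome 9 in an intron of the noncoding gene AL158152.2, with 310 bases between MIRLET7A1 and MIRLET7F1 and 2400 between MIRLET7F1 and MIRLET7D. From this locus let-7d-5p had log2 ratios of -1.10 in HT29 and -0.60 in HCT15, against 0.46 and -0.26 for let-7f-5p, part of which comes from MIRLET7F2. MIRLET7F2 and MIR98 lie 871 bases apart on chromosome X in an intron of HUWE1, a ubiquitin ligase gene. On chromosome 22, MIRLET7A3 and MIRLET7B lie 863 bases apart in exonic sequence of MIRLET7BHG. MIRLET7G lies in an intron of WDR82 on chromosome 3, and MIRLET7I in an intron of AC048341.1 on chromosome 12.

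Hairpins of let-7d and of both chromosome 22 genes are shown because let-7d-5p and let-7b-5p were at the opposite ends of the family in the HCT15 ratios and the hairpins differ in the element that LIN28 is known to recognise. GGAG is in capitals.
MIRLET7D, chr9:94178834-94178920, plus strand: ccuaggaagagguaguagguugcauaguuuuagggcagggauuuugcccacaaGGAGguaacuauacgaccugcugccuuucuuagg
MIRLET7B, chr22:46113686-46113768, plus strand: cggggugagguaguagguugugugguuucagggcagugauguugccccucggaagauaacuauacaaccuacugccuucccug
MIRLET7A3, chr22:46112749-46112822, plus strand: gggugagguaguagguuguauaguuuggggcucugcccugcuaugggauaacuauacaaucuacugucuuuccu
GGAG, searched on the transcribed strand, occurred in 9 of the 11 let-7 hairpins in the sequence table, and in 43.4% of all 1560 hairpins there. In each of these 9 it occurred after the guide strand, and the 2 without it were MIRLET7B and MIRLET7A3. In HT29 the log2 ratios were 0.77 for let-7c, 0.75 for let-7e-5p and -1.10 for let-7d-5p, whose hairpins hold GGAG, and 0.66 for let-7b-5p. In HCT15 those of the let-7 members whose hairpins all hold GGAG ranged from -0.60 for let-7d-5p to 0.37 for let-7c. There let-7b-5p had 0.63. The ratio of let-7a-5p, which MIRLET7A3 also encodes, was 0.49 in HT29 and -0.27 in HCT15. Whether GGAG has a part in the ratios of either line was not tested. A match is a description of the letters and not of binding. LIN28 itself is a protein and was not measured by these libraries.

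Other miRNAs of the same loci were set beside the guide strands. MIRLET7E lies between MIR99B, 104 bases away, and MIR125A, 389 bases away, in an intron of SPACA6 on chromosome 19. miR-99b-5p was at 14606 CPM in HT29 spheres and 11988 CPM in HT29 parental cells (log2 ratio 0.89), and at 5467 CPM in HCT15 spheres and 8356 CPM in HCT15 parental cells (-0.26). miR-125a-5p was at 1273 CPM in HT29 spheres and 2079 CPM in HT29 parental cells (-0.10), and at 8723.5 CPM in HCT15 spheres and 5735 CPM in HCT15 parental cells (0.96). In HT29 let-7e-5p, at 0.75, was close to miR-99b-5p, and in HCT15, at 0.01, it lay between its neighbours. MIRLET7C lies 658 bases from MIR99A in an intron of MIR99AHG on chromosome 21. miR-99a-5p was at 37.8 CPM in HT29 spheres and 19.98 CPM in HT29 parental cells (1.51), and at 529.8 CPM in HCT15 spheres and 564 CPM in HCT15 parental cells (0.26), so let-7c was higher than its neighbour in all 4 libraries.

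MIRLET7A2 lies 5635 bases from MIR100 in an intron of MIR100HG on chromosome 11. miR-100-5p was at 59.6 CPM in HT29 spheres and 34.1 CPM in HT29 parental cells (log2 ratio 1.40), and at 647 CPM in HCT15 spheres and 665 CPM in HCT15 parental cells (0.31). miR-125b-5p, made from both the chromosome 11 and the chromosome 21 locus, was at 10.2 CPM in HT29 spheres and 7.92 CPM in HT29 parental cells (0.94), and at 329 CPM in HCT15 spheres and 271 CPM in HCT15 parental cells (0.63). let-7a-2-3p, the passenger strand that marks MIRLET7A2 among the let-7a hairpins, was listed at 0 in both HT29 libraries and at 0.988 and 4.32 CPM in HCT15 spheres and parental cells, of which the value in spheres lies within what a count of 0 allows. miR-4763-3p, 28 bases from MIRLET7B, had 1 read in HT29 spheres and was at 0 in the other libraries.

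The passenger strands, the arms of the same hairpins that are mostly discarded, did not follow the guides in every case. In HT29, let-7e-3p was at 19.6 CPM in spheres and 100.2 CPM in parental cells, a log2 ratio of -1.74 (interval -1.97 to -1.53), where its guide had 0.75. let-7e thus had 448 guide reads per passenger read in HT29 spheres (interval 395 to 509) and 79.5 in HT29 parental cells (73.3 to 86.4). In HCT15 it had 68.9 in spheres and 76.3 in parental cells, and these intervals overlapped. let-7d-3p was at 74.7 CPM in HT29 spheres and 271 CPM in HT29 parental cells, a log2 ratio of -1.25, close to that of its guide. In HCT15 it was at 271 CPM in spheres and 381 CPM in parental cells, a ratio of -0.14 (interval -0.28 to 0.00), where the guide had -0.60. let-7a-3p was at 36.7 CPM in HT29 spheres and 54.8 CPM in HT29 parental cells (0.03), and at 269 CPM in HCT15 spheres and 207 CPM in HCT15 parental cells (0.73, interval 0.57 to 0.89), where the guide had -0.27.

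Guide-to-passenger ratios need no scaling either, and for let-7a, let-7b, let-7d, let-7f, let-7g and let-7i they differed more between the lines than between the cultures on the log scale. For let-7e the lines were apart as spheres and close as parental cells. let-7a had 1797 guide reads per passenger read in HT29 spheres and 1304 in HT29 parental cells, and 105 in HCT15 spheres and 206 in HCT15 parental cells. let-7b had 1192 in HT29 spheres and 1250.2 in HT29 parental cells, and 23.4 in HCT15 spheres and 20.9 in HCT15 parental cells. let-7d had the lowest ratios of the 7 let-7 groups in each library, at 32.7 in HT29 spheres and 29.3 in HT29 parental cells, and 3.25 in HCT15 spheres and 4.49 in HCT15 parental cells. let-7i ran the other way, with 80.02 in HT29 spheres and 91.9 in HT29 parental cells, and 1873 in HCT15 spheres and 1297 in HCT15 parental cells. The HCT15 intervals of 1007 to 4181 in spheres and 887 to 2025 in parental cells overlapped, with 9.2 and 25.3 passenger reads in spheres and parental cells. The files of the lines hold different units and may have been counted differently, and the part of that in these ratios was not tested.

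**Figure D5:**
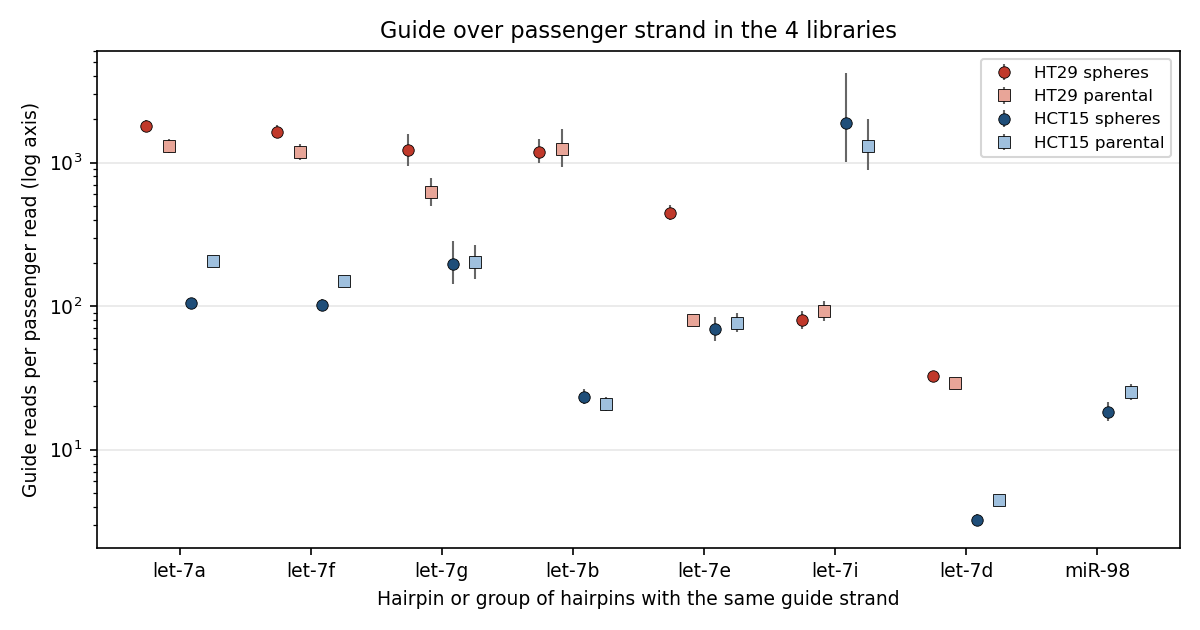
Guide reads per passenger read (log axis) for each let-7 group of hairpins in the 4 libraries, with 95% counting intervals. For let-7a, let-7b, let-7d, let-7f and let-7g the HT29 points lie above the HCT15 points, let-7i has the reverse order, and miR-98 has HCT15 points alone.

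Between the lines, 7 of the 9 guide strands were higher in HT29 than in HCT15 in both cultures, in files that were normalized separately. Of 240 miRNAs that averaged 50 CPM or more over the 4 libraries, 50% were. The count of members was 7 under each of the 5 scalings that span both lines, where 46.25% to 50% of miRNAs were higher, a comparison added after the values were seen. As spheres, let-7b-5p had the largest fold of HT29 over HCT15, 3.80, and let-7g-5p the smallest of the 7, 1.99. As parental cells, the largest was 4.64 for let-7d-5p, and let-7a-5p and let-7f-5p both stood at 1.64. let-7i-5p was at 0.156-fold as spheres and 0.239-fold as parental cells. miR-98-5p was at 0.684-fold as spheres and 1.07-fold as parental cells, so its order of lines differed between the cultures. The order of the members was let-7a-5p, let-7f-5p, let-7c and let-7b-5p from the highest in both HT29 libraries, whereas in both HCT15 libraries let-7i-5p was the third.

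The miRNAs outside the family whose levels over the 4 libraries were most like those of its sum were miR-532-5p, miR-99b-5p, miR-17-3p, miR-3176 and miR-1307-3p. Likeness was the distance between log2(CPM + 1) values centred on their own mean over 4 libraries, among 231 miRNAs that averaged 50 CPM or more. The distances were 0.25 for miR-532-5p, 0.32 for miR-99b-5p and 0.44 for miR-1307-3p, the farthest of the 5, beside a median of 2.55 over all candidates. miR-532-5p was at 396 CPM in HT29 spheres and 349.95 CPM in HT29 parental cells, and at 166 CPM in HCT15 spheres and 239 CPM in HCT15 parental cells. The same 5 miRNAs were nearest to let-7a-5p alone. Among other human miRNAs that share bases 2 to 8 with let-7, miR-4500 was at 0 in all 4 libraries, and miR-4458 was at 0 in 3 libraries and at 0.599 CPM in HCT15 parental cells, all within what a count of 0 allows.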

How the data were processed

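Per the labels' protocols, 1 ug of total RNA went into each TruSeq Small RNA library. The HT29 files hold deposited counts per mature miRNA of miRBase R19, and the HCT15 values were deposited as RPKM, both per the file headers. The submitters' processing notes name hg19. Which aligner was used, and how reads matching several names were treated, is not given in the sources used here. In HCT15, low values came in steps that depend on mature length, and at 22 nt 1 read was worth 0.162 in parental cells and 0.263 in spheres. With each value corrected for mature length, 73.0% of 366 values in parental cells and 77.0% of 269 in spheres lay within 0.02 of a whole read. Random values would give 4%. With that correction, 34.7% of 251 values were whole at the commonest step in spheres, 0.527, so the smaller step was used. The reads given here took the 22 nt step for every miRNA, without the correction. On that scale 43.4% of values in parental cells and 46.5% in spheres were whole. The reads of HCT15, totals included, are therefore estimates.

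CPM was computed over listed miRNAs. Log2 ratios used TMM factors (edgeR 4.0.16) with a prior count of 2, exact conditional intervals for ratios and Clopper-Pearson intervals for shares. PCR reads without molecular identifiers are not independent molecules. Because HCT15 values are RPKM, limma 3.58.1 was the test, with cell line as a block and 1 residual degree of freedom. It used log2(CPM + 1), here with CPM scaled by the TMM factors. Names tested had at least 10 CPM, before that scaling, in at least 2 libraries. edgeR and DESeq2 1.42.0 on reads were alternatives. The miRNAs named are all members, their passenger strands, neighbours of their hairpins, other miRNAs with the seed, and the 5 nearest in pattern. Members and lists were chosen with earlier results of these data known.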

Additional observations from a re-analysis of the deposited data

Results flagged for a closer look

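Several values had opposite signs in HT29 and HCT15, with 1 pair of libraries per line, and the difference between the lines was not tested. On the log2 scale, HT29 minus HCT15, the ratio of spheres over parental cells differed by 0.76 for let-7a-5p (0.49 and -0.27), by 0.72 for let-7f-5p (0.46 and -0.26) and by 0.61 for the summed family (0.45 and -0.17). All 3 depend on the scaling. The log2 fold in share of the family, which needs no scaling, differed by 0.15 for let-7a-5p (0.04 and -0.10) and by 0.11 for let-7f-5p (0.01 and -0.10). The same measure differed by -0.73 for let-7g-5p (-0.43 and 0.30), by -0.97 for let-7i-5p (-0.92 and 0.05) and by -1.001 for miR-98-5p (-0.97 and 0.04).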

How the results depend on the processing

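The log2 ratio of the summed family in HT29, 0.45 with TMM, was -0.16 with total reads, 0.14 with totals that leave out the 10 most abundant miRNAs, 0.61 with TMM on the line alone, 0.64 with upper quartile scaling, 0.45 without miR-98 and 0.53 over names linked by single-base differences, a choice made after seeing the data. In HCT15, -0.17 with TMM, it was -0.52 with total reads, -0.41 without the 10 most abundant miRNAs, 0.047 with DESeq2 size factors, 0.10 with upper quartile scaling and -0.18 over linked names. The cause was not tested. The family share without miR-98 was 15.4% and 17.1% in HT29 spheres and parental cells, and 6.92% and 9.94% in HCT15 spheres and parental cells. With passenger strands added it was 17.4% in HT29 parental cells, and 7.16% and 10.2% in HCT15 spheres and parental cells. Members at least 2-fold lower in HT29 numbered 3 of 9 with total reads (74 of 226 miRNAs), 0 with upper quartile scaling (34 of 226) and 0 with TMM on the line alone (35 of 226). Of 126 member ratios under another scaling or prior count, 113 had the sign of the TMM value and 13 the other sign. Another prior count moved a ratio by at most 0.0014, and in HCT15 TMM on the line alone repeated the TMM values. Those settings left every sign as it was, so the 13 came from other scalings, and the 113 overstate how stable the signs are. Calls across lines numbered 0 of 378 miRNAs with limma, 6 of 378 without the 10 most abundant miRNAs and 5 of 378 with DESeq2. With no filter on low values they numbered 7 of 1235. Of all these calls 0 were members. At an unadjusted p under 0.05 let-7d-5p was 1 of 9 members with total reads (39 of 378 miRNAs) and without the 10 most abundant miRNAs (43 of 378). With upper quartile scaling members numbered 2 of 9, let-7b-5p and let-7c (31 of 378 miRNAs). The limma test pairs spheres with parental cells by cell line. With no replicate block it called 0, with 0 miRNAs at an unadjusted p under 0.05 against 22 with the block. With a line left out, let-7a-5p had -0.27 without HT29 and 0.49 without HCT15, and let-7f-5p -0.26 and 0.46. A count of calls could not be fitted then, since no residual degrees of freedom remain.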
